A study of Homo sapiens with 16 samples.

Results

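The genes examined were CXCL1, CXCL2, CXCL3, CXCL5, CXCL6 and CXCL8, 6 neutrophil-attracting chemokine genes of 1 cluster on chromosome 4. They were taken by name as the members, out of 19970 protein-coding genes whose promoters were read. The interval spanned chr4:73720519-74119196 (GRCh38, 398.7 kb), from 20 kb upstream of CXCL8 to 20 kb upstream of CXCL2, the outermost genes, which point toward each other, and was read in 1994 bins of 200 bp out of 13927482 in the genome. A bin was listed for a group of libraries when the mean p65 signal was at least 2 and at least 4 times the input of that group.

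CXC chemokines with an ELR motif draw neutrophils through the receptors CXCR1 and CXCR2, and CXCL8, also called interleukin 8, is the best known of them. Epithelial cells make these ligands within minutes to hours of a TNFα or interleukin 1 signal, when NFκB dimers that contain p65 (the RELA subunit) enter the nucleus and bind κB sites in the promoters. In colorectal tumors the same ligands recruit myeloid cells.

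The data were p65 ChIP-Seq tracks of the human colorectal adenocarcinoma lines HT29 and SW480. In ChIP-Seq, chromatin fragments pulled down with an antibody are sequenced, and a bound region gathers more tags than an input library made without that step. Each line was studied as mock cells and as cells stably transfected with ERβ (ESR2), with 3 ChIP libraries and 1 input library in each of the 4 groups. Per the labels all cells had received TNFα at 30 ng/ml for 30 min, so no untreated state was measured and every difference below is between stimulated cells. The ERβ was exogenous, the promoter that drove it and the number of clones behind each line are not given in the sources used here, no estrogen was added per the study's methods, and the ERβ inputs came from another series of libraries. Whether the cells of those inputs were treated alike is not given in the methods, and the values relative to input in the ERβ groups rest on them.

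The signal is the number of tags that cover a base after the authors brought every library to 10 M tags, so the depth of each library is unknown from the tracks. The labelled ERβ status was checked by the signal over ESR2 coding exons relative to its introns, which was 4.05 to 7.07 in HT29 ERβ and 2.42 to 3.14 in SW480 ERβ ChIP libraries, against 1.04 to 1.34 and 1.31 to 1.61 in the mock libraries. Replicate 1 of both HT29 groups stood apart with more signal at the highest bins. A peak factor, the median ratio of a library to the mean library over the 5000 highest bins of the genome, was 1.51 and 1.31 for HT29 replicate 1 of mock and ERβ, against 0.642 to 0.825 for the other 4 HT29 libraries. In SW480 these factors were 0.597 to 0.755 for mock and 0.892 to 1.62 for ERβ, so the strength of enrichment over the whole genome moved with ERβ status in that line. Its part in the results at the chemokine genes was not tested, but values after rescaling each library by its peak factor are given beside the main ones. Such rescaling takes out differences shared by the highest bins, so a gain common to them cannot show on that scale. The cluster input was 1.20 and 1.10 times the genome mean in HT29 mock and ERβ, and 0.964 and 0.970 in SW480.

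The 6 promoters share 1 short sequence. RefSeq promoter windows from 250 bases before to 50 after each start site (GRCh38.p14) were matched by symbol for all 6 genes, and each held the 9-base κB core GGAATTTCC, found in 64 of 15316 protein-coding promoters of this length (0.418%). The first base of the core lies between positions -91 and -77 from the start site in every member, on the strand of the gene. The lines below run 5′ to 3′ on that strand, with the core in capitals, and are shown because 5 of these promoters gathered p65 in at least 1 group and CXCL5, with the same core, did not. They lie at chr4:73740453-73740511 (+) for CXCL8, chr4:73836564-73836622 (+) for CXCL6, chr4:73998734-73998792 (-) for CXCL5, chr4:73869290-73869348 (+) for CXCL1, chr4:74038734-74038792 (-) for CXCL3 and chr4:74099239-74099297 (-) for CXCL2.
CXCL8: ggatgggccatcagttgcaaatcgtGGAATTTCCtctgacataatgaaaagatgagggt
CXCL6: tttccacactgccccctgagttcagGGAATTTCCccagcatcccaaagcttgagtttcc
CXCL5: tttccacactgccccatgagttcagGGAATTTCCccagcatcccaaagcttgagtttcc
CXCL1: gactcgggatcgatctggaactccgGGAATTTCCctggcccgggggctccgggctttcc
CXCL3: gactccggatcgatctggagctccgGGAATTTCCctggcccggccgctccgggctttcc
CXCL2: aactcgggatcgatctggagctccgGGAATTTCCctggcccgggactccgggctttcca

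The promoters fell into 3 kinds by sequence. Over the 100 bases before the start site, CXCL1, CXCL2 and CXCL3 were 89.2 to 94.1% identical to each other in a global alignment, and CXCL5 and CXCL6 were 90.1% identical. CXCL8 was 43.2 to 55.3% identical to the other 5. In the printed lines CXCL5 and CXCL6 differ at 1 of 59 positions. The 10-base κB consensus, searched on both strands and overlapping the core where both occur, was present in all 6 windows and in 9.91% of the 15316 promoters. In CXCL8 it matched away from the core. Among the members, an AP-1 match (TGANTCA) and a TATA box (TATAAA) were found in CXCL8 alone, against 5.75% and 9.64% of promoters, and a C/EBP match (TTGCNNAA) in CXCL2 alone, against 8.38%. A GC box (GGGCGG) was found in CXCL1, CXCL3 and CXCL6, against 59.2%. Only exact matches were searched, so a promoter without one may hold a variant of the site. The printed CXCL8 line holds ttgcaaat, which misses the C/EBP pattern at its last base.

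By the listing rule, 19 bins in 7 regions of the cluster held p65 in at least 1 group, 5 of them at promoters and 2 away from one. HT29 mock had 14 listed bins, HT29 ERβ 15, SW480 mock 6 and SW480 ERβ 13. As a share of the 1994 bins these are 0.702%, 0.752%, 0.301% and 0.652%, against 0.044%, 0.0292%, 0.0108% and 0.0688% of all bins of the genome in the same groups. The promoters of CXCL8, CXCL1, CXCL3 and CXCL2 and a region upstream of CXCL5 were listed in all 4 groups. The promoter of CXCL6 was listed in SW480 ERβ alone, and a region upstream of CXCL2 in every group but SW480 mock. No bin at the CXCL5 promoter was listed in any group. Since a bin is listed through the group means, these counts are a description, and the tests below were made on bins chosen on the mean of all 12 ChIP libraries.

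**Figure D1:**
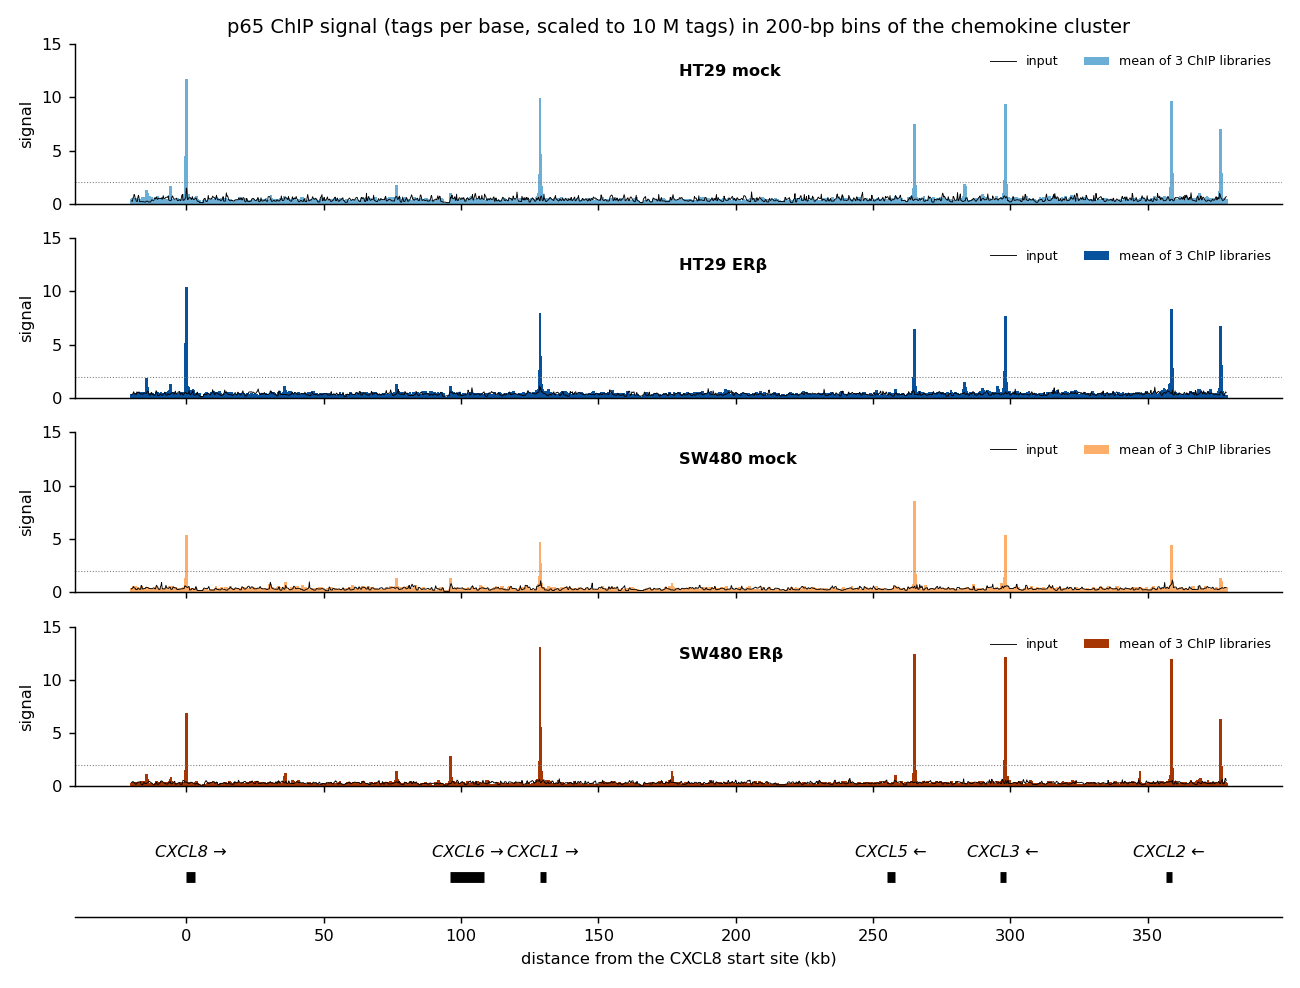
Mean p65 ChIP signal of 3 libraries (colored bars, drawn wider than the 200-bp bins they stand for) and input (black line) along the cluster, one panel per group, against the distance in kb from the CXCL8 start site, with the dotted line at a signal of 2 and the genes below. The same 5 peaks rise above the line in all 4 groups, at CXCL8, CXCL1, CXCL3, CXCL2 and upstream of CXCL5, while the rightmost peak is missing in SW480 mock and the CXCL6 peak passes the line in SW480 ERβ alone.

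The 2 regions away from promoters differ in what sequence they hold. The CXCL5 upstream region, chr4:74005401-74005800, lies in an intron of the long noncoding gene ENSG00000287037, and the center of its highest bin is at -7024 bp from the CXCL5 start site. It holds the same κB core at chr4:74005578-74005586, a C/EBP match at chr4:74005632-74005639 (-) and no match to the 10-base consensus. Of the 474363 adjacent windows of 400 bp on chromosome 4 without unread bases, 0.398% hold the core and 21.9% a C/EBP match. The CXCL2 upstream region, chr4:74116801-74117400, lies in an intron of MTHFD2L, a mitochondrial folate enzyme gene, with its highest bin 2926 bp inside the start of that gene and -17906 bp from the start of CXCL2. It held no exact match to the κB core or the consensus, and inexact matches were not searched. It held an AP-1 match at chr4:74117194-74117200, a C/EBP match at chr4:74117011-74117018 (-) and a pair of overlapping TATA matches at chr4:74116943-74116948 (-) and chr4:74116945-74116950 (+). Windows of 600 bp on chromosome 4 held an AP-1 match in 18.2%, a C/EBP match in 31.1% and a TATA match in 57% of 316236. They are printed from the GRCh38 plus strand, at chr4:74005553-74005611 with the κB core in capitals and at chr4:74117081-74117260 with the AP-1 match in capitals.
CXCL5 upstream: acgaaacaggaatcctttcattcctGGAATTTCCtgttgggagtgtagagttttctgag
CXCL2 upstream: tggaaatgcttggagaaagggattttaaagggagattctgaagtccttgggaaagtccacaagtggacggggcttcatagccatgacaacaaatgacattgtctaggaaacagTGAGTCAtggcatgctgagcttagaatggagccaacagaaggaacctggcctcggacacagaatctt

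The peaks lay near the core. The highest base of the group means lay within 43 bases of the middle of the core in all 4 groups at CXCL8, CXCL1, CXCL3 and CXCL2, and within 24 bases at the CXCL5 upstream region. At CXCL6 this distance was 2 bases in SW480 ERβ, where the summit reached 3.83, and 62 to 169 bases in the other groups, whose summits were 1.18 to 1.44. At the CXCL2 upstream region the summits of the 3 groups that listed it stood at 7.92 to 8.66, against 1.49 in SW480 mock. Those 3 summits lay at chr4:74117135 in HT29 mock, chr4:74117141 in HT29 ERβ and chr4:74117151 in SW480 ERβ, before the AP-1 match at chr4:74117194-74117200.

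**Figure D2:**
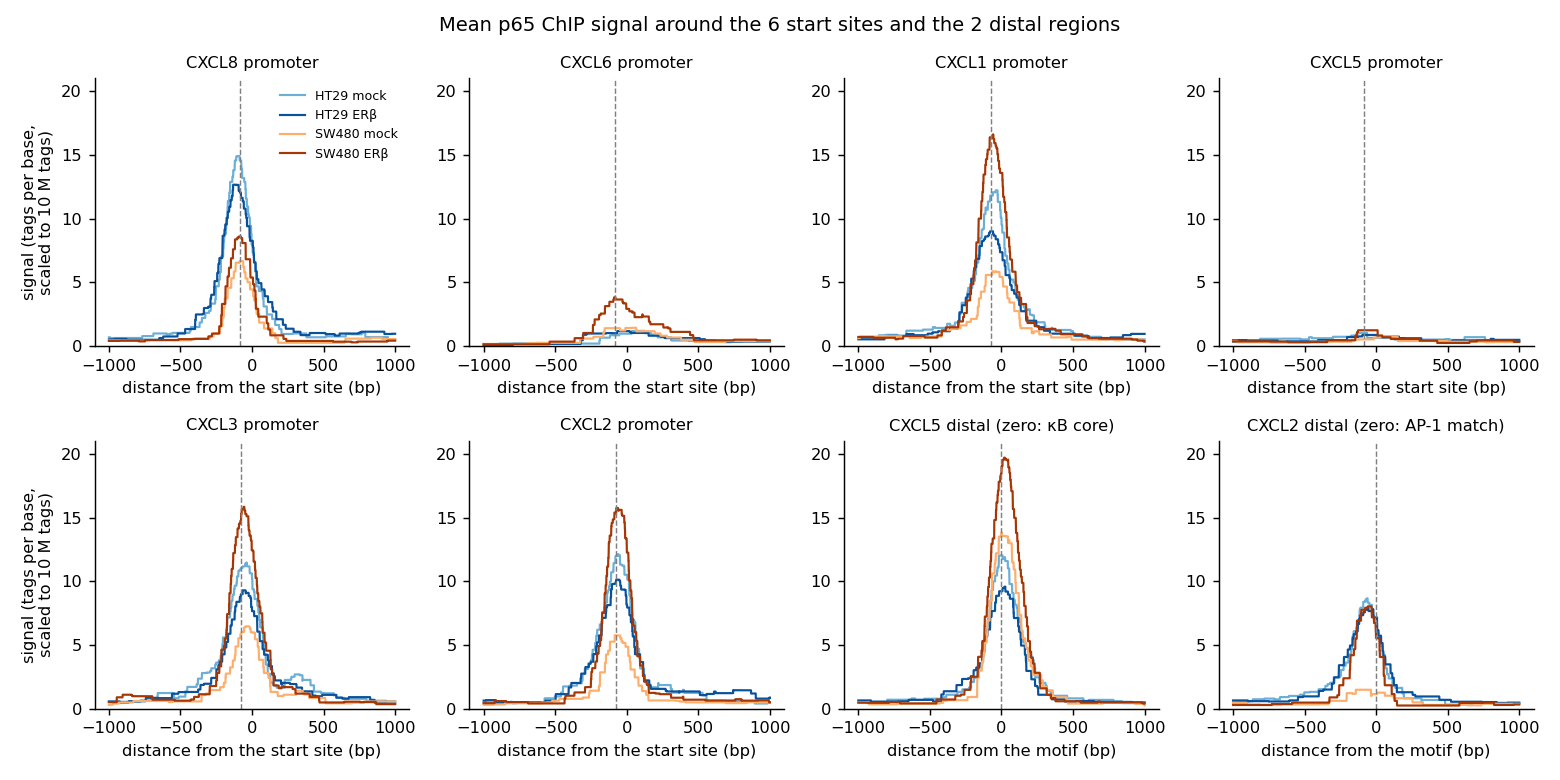
Mean p65 ChIP signal of 3 libraries per group, base by base, from 1000 bp before to 1000 bp after the 6 start sites, in the direction of the gene, and around the motif of the 2 distal regions on the plus strand. The dashed line marks the κB core, or the AP-1 match in the CXCL2 distal panel. The peaks of CXCL8, CXCL1, CXCL3, CXCL2 and the CXCL5 distal region stand on the line in all groups, and the CXCL5 promoter shows no peak.

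In the results that follow, a value is the mean signal in the 200-bp bin with the highest mean over all 12 ChIP libraries in its region, for replicates 1, 2 and 3 in that order, and log2 differences are of signal plus 1. The adjusted p of a bin is from limma over the 19580 bins of the genome that passed the same group-blind filter. Of these, 30 lay in the cluster, among them all 19 listed bins. Statements that the libraries of groups do or do not overlap are descriptions, given without the share of all bins that do so.

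CXCL8 had the highest mean of the 7 regions in both HT29 groups, and was the one promoter where SW480 ERβ did not have the highest mean of the 4 groups. Its bin, chr4:73740401-73740600, is centered -68 bp from the start site. HT29 mock libraries gave 16.4, 9.40 and 9.47, with a mean of 11.7 ± 4.0 (SD, n = 3), and HT29 ERβ gave 12.6, 8.92 and 9.79, with a mean of 10.4 ± 1.92. SW480 mock gave 6.66, 4.75 and 4.57, with a mean of 5.33 ± 1.15, and SW480 ERβ gave 4.58, 9.97 and 6.14, with a mean of 6.90 ± 2.77. All 6 HT29 libraries were above the 3 SW480 mock libraries, and replicate 2 of SW480 ERβ reached into the HT29 range. The input was 1.48 in HT29 mock and 0.430 to 0.520 in the other groups, so this bin was also the one with the highest input.

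CXCL1 encodes GROα, a ligand of CXCR2, and its promoter held the highest mean of any region in SW480 ERβ. The bin chr4:73869201-73869400 gave 13.4, 8.33 and 7.87 in HT29 mock, a mean of 9.88 ± 3.10, and 9.93, 7.19 and 6.85 in HT29 ERβ, a mean of 7.99 ± 1.69. SW480 mock gave 3.32, 4.69 and 6.21, a mean of 4.74 ± 1.45, and SW480 ERβ gave 9.81, 12.6 and 16.8, a mean of 13.1 ± 3.51. Ordered by mean, SW480 ERβ stood above HT29 mock, HT29 ERβ and SW480 mock, and the libraries of neighbors in that order overlapped except between HT29 ERβ and SW480 mock.

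CXCL2 (GROβ) showed the same order, with tighter SW480 groups. In chr4:74099201-74099400, HT29 mock gave 14.0, 6.47 and 8.57, a mean of 9.68 ± 3.89, and HT29 ERβ gave 10.5, 7.18 and 7.50, a mean of 8.40 ± 1.85. SW480 mock gave 3.59, 4.40 and 5.27, a mean of 4.42 ± 0.843, and SW480 ERβ gave 9.22, 14.5 and 12.2, a mean of 11.97 ± 2.64. Every SW480 mock library was below every library of the other 3 groups.

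CXCL3 (GROγ) held the third GRO peak, in chr4:74038601-74038800. HT29 mock gave 12.6, 6.90 and 8.76, a mean of 9.41 ± 2.89, and HT29 ERβ gave 10.7, 5.94 and 6.28, a mean of 7.65 ± 2.68. SW480 mock gave 3.09, 6.11 and 6.97, a mean of 5.39 ± 2.04, and SW480 ERβ gave 6.52, 13.7 and 16.2, a mean of 12.1 ± 5.02. Here the SW480 groups overlapped, since replicate 1 of ERβ was below replicate 3 of mock. Within each replicate number ERβ was higher, as it was at 66.9% of all tested bins. Reads of 75 bases were kept by the authors only where they aligned uniquely, and 19.8% of the 75-base words in the listed CXCL3 region and 7.22% of those in the CXCL2 region have another exact copy on chromosome 4, against none in the other regions, so the levels of these genes are uncertain at those words.

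CXCL6 and CXCL5, near copies of each other, had little p65 at their promoters. The CXCL6 bin chr4:73836601-73836800 gave 1.39, 0.800 and 0.974 in HT29 mock (mean 1.05 ± 0.301), 1.23, 1.10 and 0.953 in HT29 ERβ (1.10 ± 0.140) and 1.14, 1.55 and 1.25 in SW480 mock (1.31 ± 0.212). In SW480 ERβ it gave 1.96, 3.48 and 3.26, a mean of 2.90 ± 0.820, and all 3 libraries were above the other 9. The CXCL5 bin over the start site and the core, chr4:73998601-73998800, gave 0.701, 0.760 and 0.810 in HT29 mock (mean 0.757 ± 0.0547) and 1.08, 0.770 and 0.584 in HT29 ERβ (0.812 ± 0.251). It gave 0.560, 0.235 and 1.05 in SW480 mock (0.615 ± 0.411) and 1.13, 1.03 and 1.09 in SW480 ERβ (1.08 ± 0.0517). These means are 0.963, 1.90, 1.20 and 2.26 times input, SW480 ERβ lay above HT29 mock and overlapped the other 2 groups, and the bin did not pass the filter for testing.

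The CXCL5 upstream region had more signal in SW480 mock than any promoter of the cluster. In chr4:74005601-74005800, SW480 mock gave 9.25, 8.75 and 7.78, a mean of 8.59 ± 0.749, the highest of the 7 regions in that group. HT29 mock gave 12.4, 4.14 and 5.88, a mean of 7.49 ± 4.38, and HT29 ERβ gave 9.39, 4.96 and 4.29, a mean of 6.21 ± 2.77. SW480 ERβ gave 7.07, 18.2 and 11.9, a mean of 12.4 ± 5.61. All 4 groups overlapped, with HT29 replicate 1 among the SW480 libraries and HT29 replicates 2 and 3 of both groups below every SW480 library.

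The CXCL2 upstream region was low in SW480 mock alone. In chr4:74117001-74117200, SW480 mock gave 1.05, 2.55 and 0.420, a mean of 1.34 ± 1.10, against 0.350 in its input. HT29 mock gave 12.4, 3.69 and 4.83, a mean of 6.99 ± 4.76, HT29 ERβ gave 11.98, 4.24 and 4.03, a mean of 6.75 ± 4.53, and SW480 ERβ gave 4.78, 8.54 and 5.79, a mean of 6.37 ± 1.95. No SW480 mock library reached any library of the other groups. Replicate 1 was the highest library of both HT29 groups.

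**Figure D3:**
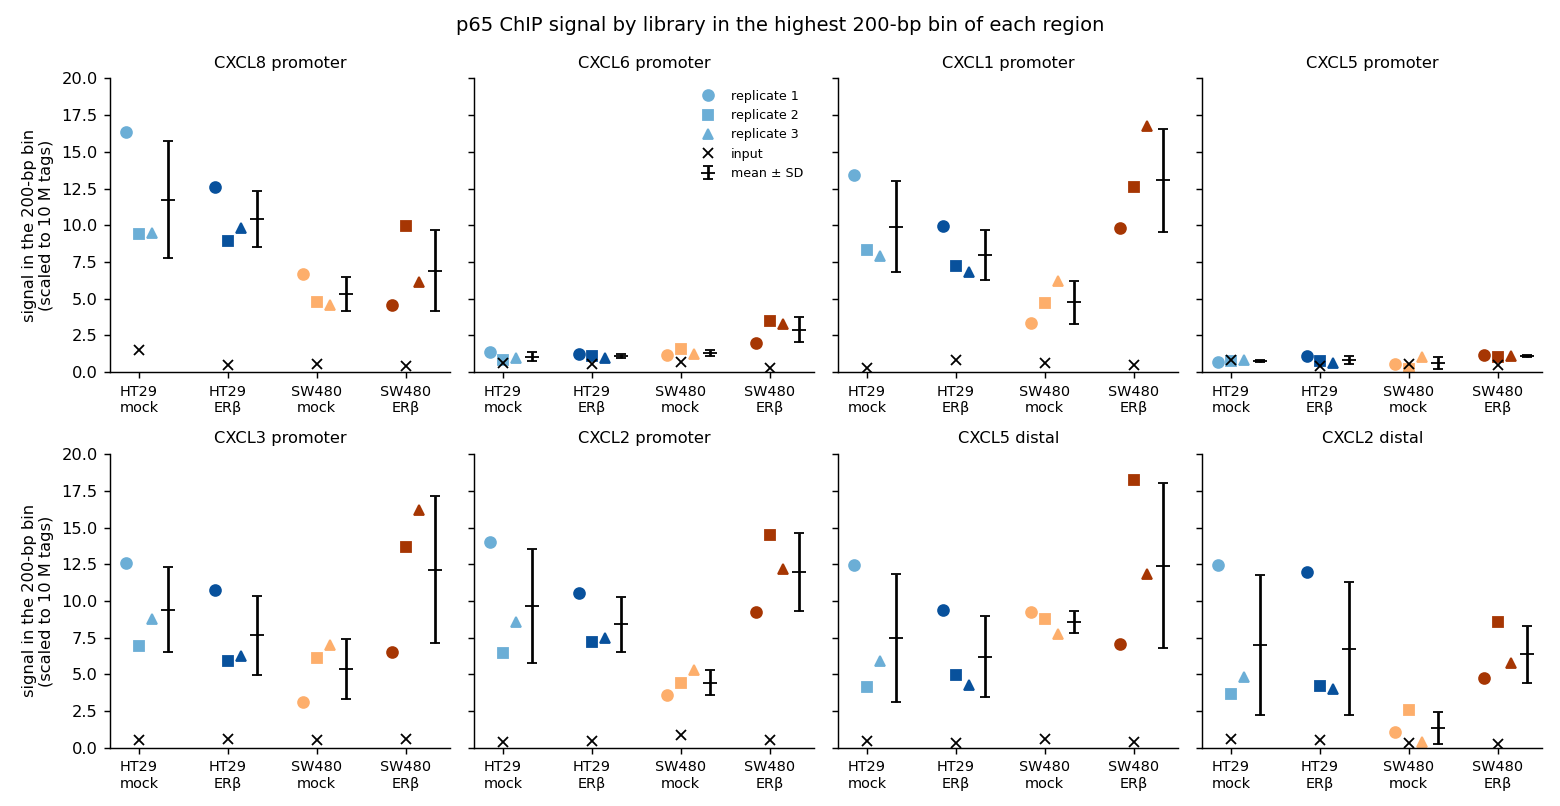
Signal in the highest 200-bp bin of each region and in the bin over the CXCL5 start site, for each library (symbols by replicate number), with mean ± SD of 3 libraries (black bars) and input (crosses), by group. SW480 mock lies lowest of the 4 groups at CXCL8, CXCL1, CXCL3, CXCL2 and the CXCL2 distal region, and HT29 replicate 1 lies above replicates 2 and 3 in both HT29 groups there.

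The first comparison asks whether ERβ changed p65 at these genes in HT29. In limma none of the 30 cluster bins passed an adjusted p of 0.05, with 0 of the 30 at an unadjusted p under 0.05, and 0% of the 19580 bins passed (0 called, 245 at an unadjusted p under 0.05). The log2 differences in the 7 highest bins lay between -0.27 (SE 0.50, CXCL3) and 0.04 (SE 0.28, CXCL6), and after rescaling by the peak factors between -0.04 and 0.20, with CXCL8, CXCL2 and both upstream regions changing sign. With the replicate number as a block 10 bins of the genome were higher and 134 lower, none of them in the cluster. Over the promoters, taken as 1000 bp before to 100 bp after the start site, 0 of 6 members passed, against 0.00501% of 19970. At an unadjusted p under 0.05 were 0 of the 6, against 3.57% of all promoters. With replicate 1 left out of both HT29 groups, an alternative chosen after seeing the data, the 7 differences were -0.30 to 0.10 and none passed. Within same-numbered pairs, CXCL1 and CXCL3 were lower with ERβ in 3 of 3 pairs, as were 30.5% of all tested bins, and the other 5 highest bins were lower in 2 of 3. In the blocked fit CXCL1 had -0.26 (SE 0.14, adjusted p 0.376) and CXCL3 had -0.27 (SE 0.14, adjusted p 0.344), and the standard errors of the 7 bins were 0.13 to 0.19.

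The second comparison asks the same in SW480. In limma 10 of the 30 cluster bins were higher with ERβ and 0 lower. In the genome 31.8% of tested bins were higher, so the share in the cluster was near the background. Of the 10, the CXCL6 bin at -178 bp would not have passed the filter without the SW480 ERβ libraries, and the median log2 difference of the cluster bins was 0.42 against 0.48 over all 19580. The highest bin of the CXCL2 upstream region rose 4.75-fold (log2 difference 1.73, SE 0.30, adjusted p 7.29e-06). CXCL1 rose 2.76-fold (1.29, SE 0.33, adjusted p 0.00178), CXCL2 rose 2.71-fold (1.25, SE 0.32, adjusted p 0.00228) and CXCL3 rose 2.25-fold (1.01, SE 0.33, adjusted p 0.0157). These 4 regions lay 0.53 to 1.24 above the median log2 difference of all bins. The CXCL6 bin had a mean 2.21 times higher (0.73, SE 0.28, adjusted p 0.0332). Without the SW480 ERβ libraries its mean was 1.15, which was 2.17 times the mean of the 4 inputs but 1.88 times that of the 3 inputs left, so it passed the filter largely through the group where it was high, and its test is given as a description. CXCL8 and the CXCL5 upstream region did not pass, with log2 differences of 0.28 (SE 0.32, adjusted p 0.472) and 0.40 (SE 0.33, adjusted p 0.327).

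How far these SW480 differences hold depended on scale and libraries. A gain shared by the highest bins is taken out by the peak factors and cannot show after that rescaling. Rescaling by bins of low signal instead gave 10 of the 30 cluster bins higher in limma, against 33% of all bins. When each library was rescaled by its 5000 highest bins, the median of all bins went from 0.48 to -0.06, and only the CXCL2 upstream region among the 7 stayed past the threshold in limma (1.11, SE 0.26, adjusted p 0.00725). CXCL1, CXCL2, CXCL3 and CXCL6 then had log2 differences of 0.51, 0.47, 0.22 and 0.14, and CXCL8 and the CXCL5 upstream region turned to -0.51 and -0.43, none past the threshold. With 1 library left out at a time on the deposited scale, the CXCL2 promoter and the CXCL2 upstream region passed in 6 of 6 fits. CXCL1 missed without SW480 mock replicate 1 (adjusted p 0.0555), and CXCL3 missed without SW480 mock replicate 1 (0.212) or without ERβ replicate 2 (0.0701) or 3 (0.173). CXCL6 passed in 1 of 6 fits, the one without ERβ replicate 1, and the others gave adjusted p from 0.0797 to 0.149. Without SW480 ERβ replicate 1 the CXCL5 upstream region also passed (0.72, adjusted p 0.00669).

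Over whole promoters the same direction was seen with less resolution. In limma 0 of 6 member promoters passed in SW480, against 0% of 19970 promoters. At an unadjusted p under 0.05 were 12.7% of all promoters and 4 of the 6 members. These were CXCL2 (log2 difference 0.82, SE 0.16, adjusted p 0.141), CXCL1 (0.76, SE 0.21, adjusted p 0.222), CXCL6 (0.42, SE 0.13, adjusted p 0.28) and CXCL3 (0.75, SE 0.24, adjusted p 0.286). With the promoters of a mean signal of at least 0.5 tested alone, all 4 passed, against 7.17% of 9925 higher. CXCL6 met that filter through SW480 ERβ, where its mean was 1.09. In HT29 mock, HT29 ERβ and SW480 mock it was 0.381, 0.482 and 0.549, so its call in that fit is a description. After rescaling the 4 differences were 0.02 to 0.20, and 0 of 6 passed, against 0.01% of all promoters. The median log2 difference over all promoters moved from 0.03 to -0.26 with that rescaling.

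The third comparison sets the mock cells of the lines against each other. In limma 15 of the 30 cluster bins were lower in SW480 mock than in HT29 mock and 0 higher, against 28.3% lower over all tested bins, and the median log2 difference was -0.66 in the cluster against -0.32 over all. The input over the cluster was 1.20 times the genome mean in HT29 mock and 0.964 times in SW480 mock. The part of this input difference in the ChIP values was not tested. Of the 15, 2 would not have passed the filter without the HT29 mock libraries. Rescaling moved the split over all bins from 1601 higher and 5539 lower to 4527 (23.1%) and 4637 (23.7%), and that in the cluster to 4 higher and 13 lower. The CXCL2 upstream region had a mean 5.21 times higher in HT29 (log2 difference -1.72, SE 0.34, adjusted p 1.01e-05). The CXCL8, CXCL2 and CXCL1 bins had means 2.20, 2.19 and 2.08 times higher in HT29, with adjusted p of 0.0195, 0.0297 and 0.0315. CXCL3 missed (-0.73, SE 0.36, adjusted p 0.0965), and CXCL6 and the CXCL5 upstream region had log2 differences of 0.18 (SE 0.27) and 0.29 (SE 0.35), with adjusted p of 0.635 and 0.538.

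The call at the CXCL2 upstream region held in all 6 fits without 1 library, with adjusted p of at most 0.0101, and after rescaling (-1.40, adjusted p 5.64e-06). CXCL8 and CXCL1 lost their call without any 1 of the 3 SW480 mock libraries, with adjusted p from 0.0509 to 0.241, and CXCL2 did too, also without HT29 mock replicate 3 (0.0659). After rescaling these 3 kept their direction and call, at -0.52, -0.47 and -0.48. The CXCL5 upstream region went the other way. Without HT29 mock replicate 1 it was higher in SW480 mock (0.69, adjusted p 0.00804), as it was after rescaling (0.79, adjusted p 0.000403). CXCL6 was also higher after rescaling (0.51, adjusted p 0.0363), but its bin was at 1.73 and 1.99 times input in HT29 mock and SW480 mock. That rescaling moved the median log2 difference over all promoters between the mock cells from 0.06 to 0.25. Its part in the CXCL6 call was not tested. No member promoter passed as a whole, 0 of 6 against 13.1% of all promoters. An unadjusted p under 0.05 was found at 4 of the 6, against 30.7% of all promoters. After rescaling CXCL8 and CXCL2 passed as whole promoters (-0.48 and -0.39, adjusted p 0.0319 and 0.0199), against 0.951% of all promoters lower in that fit.

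The fourth comparison, between the ERβ cells of the lines, gave few calls in the cluster. In limma 2 of 30 bins were higher in SW480 ERβ and 2 lower, against 27.1% and 8.98% of all bins. Rescaling moved these calls from 5302 higher and 1758 lower to 4511 (23%) and 5330 (27.2%) over all bins, and to 16 lower and 0 higher in the cluster. Both higher bins were at the CXCL6 promoter, whose highest bin had a mean 2.64 times that of HT29 ERβ (log2 difference 0.87, SE 0.32, adjusted p 0.0218). The other, at -178 bp, had a mean of 0.82 without the SW480 ERβ libraries and passed the filter only through them, so neither call is taken as support. The lower ones, named after their values were seen, were the bin at -268 bp from the CXCL8 start site (-1.24, adjusted p 0.00522) and a bin at +14788 bp from that of CXCL3. The latter had means of 1.87 and 1.54 in HT29 mock and ERβ and of 0.333 and 0.275 in SW480 mock and ERβ, and it would not have passed the filter without either HT29 group, so its difference is a description. Over promoters, which were tested with no filter on signal, CXCL6 was the 1 of 6 members that was higher as a whole (0.49, SE 0.13, adjusted p 0.0447), against 17.6% of promoters. After rescaling the CXCL6 promoter had 0.20 (adjusted p 0.632) and CXCL8 was lower as a whole (-1.09, adjusted p 0.0151), against 0.586% of promoters. The CXCL6 bin missed without HT29 ERβ replicate 2 or 3 or SW480 ERβ replicate 2 or 3 (adjusted p 0.0759 to 0.132) and after rescaling (0.45, adjusted p 0.0692). Its promoter call was lost without any 1 of 5 libraries, all but SW480 ERβ replicate 1, with adjusted p of 0.0622 to 0.123.

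At the GRO genes the lines were not told apart with ERβ present. The log2 differences at CXCL1, CXCL3 and CXCL2 were 0.63, 0.56 and 0.46 with standard errors of 0.45 to 0.46 and adjusted p of 0.28, 0.348 and 0.449. After rescaling they were 0.05, -0.02 and -0.12, so the last 2 changed sign. CXCL8 had -0.58 (SE 0.46, adjusted p 0.33), and -1.15 with an adjusted p of 4.92e-07 after rescaling. The CXCL2 upstream region had 0.04 (SE 0.45, adjusted p 0.95), which turned to -0.48 with an adjusted p of 0.0277 after rescaling. The CXCL5 upstream region had 0.87 (adjusted p 0.123), and passed without HT29 ERβ replicate 1 (1.17, adjusted p 0.0118) or SW480 ERβ replicate 1 (1.19, adjusted p 0.0367).

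**Figure D4:**
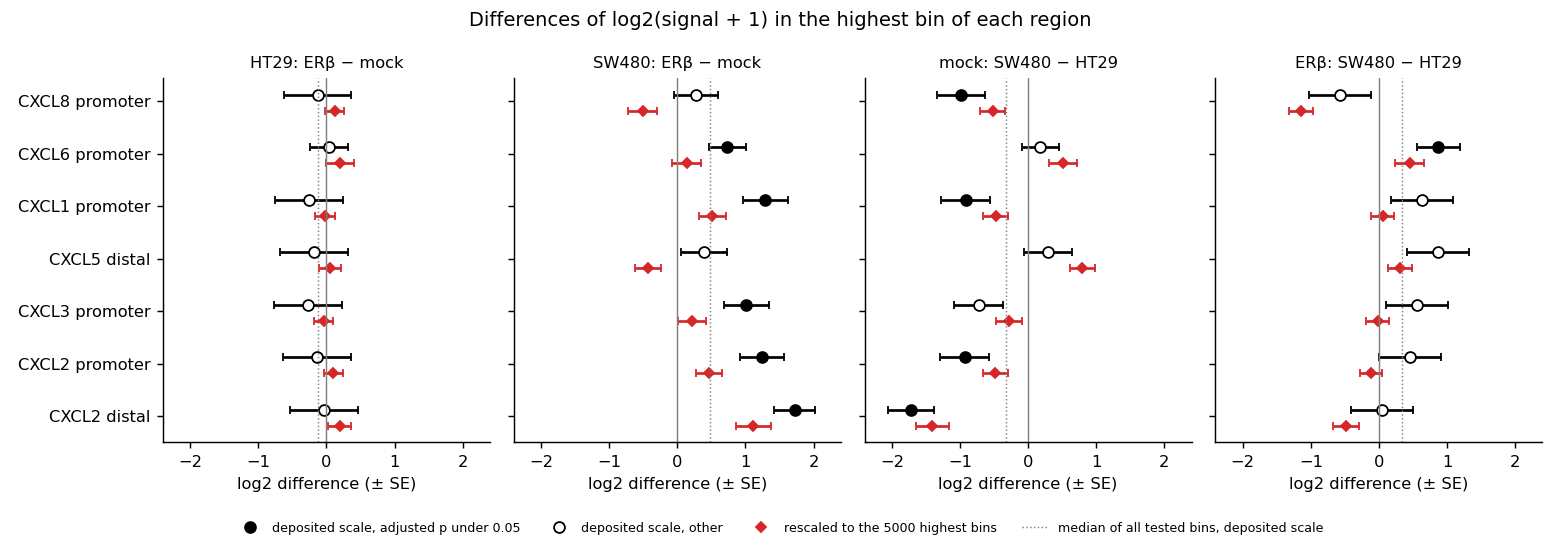
Differences of log2(signal + 1) ± SE in the highest bin of each region for 4 comparisons, on the deposited scale (circles, filled where the limma adjusted p was under 0.05) and rescaled to the 5000 highest bins (diamonds), with the median of all tested bins on the deposited scale as a dotted line. In SW480, ERβ minus mock, 5 of 7 circles are filled on the deposited scale, and CXCL8 and the CXCL5 distal region change sign when rescaled, as do 4 regions in HT29 and CXCL3, CXCL2 and the CXCL2 distal region between the ERβ cells.

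The ERβ effect was also compared between the lines by the interaction term of a fit over all 12 libraries. In limma 1 of the 30 cluster bins passed, against 7.82% of all bins higher in that direction. This was the CXCL2 upstream region, where the effect was larger in SW480 by 1.76 (SE 0.54, adjusted p 0.0269). It passed in 5 of 12 fits without 1 library, those without SW480 ERβ replicate 1, SW480 mock replicate 2, HT29 ERβ replicate 1 or HT29 mock replicate 2 or 3, and missed in the other 7 (adjusted p 0.0638 to 0.131), with values from 1.31 to 2.21 over the 12. It also missed after rescaling (0.92, adjusted p 0.174), with a pseudocount of 2 (1.38, adjusted p 0.0617) and on a grid shifted by 100 bp, where 0 of 27 cluster bins passed. CXCL1, CXCL2 and CXCL3 had interaction terms of 1.55, 1.39 and 1.28 with adjusted p of 0.0574, 0.0877 and 0.112, and CXCL8, CXCL6 and the CXCL5 upstream region had 0.40, 0.70 and 0.57 with adjusted p of 0.578, 0.223 and 0.435. After rescaling these last 3 changed sign, to -0.63, -0.06 and -0.49. The median over all bins was 0.62, and -0.07 after rescaling. Over whole promoters 0 of 6 members passed, against 0% of 19970, and 3 had an unadjusted p under 0.05, against 8.56% of all promoters.

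Deviations of mock and ERβ libraries of the same replicate number correlated above the limit set for pairing, so the number was also used as a block within each line. With the replicate block the interaction passed at CXCL1 (adjusted p 1.6e-05), CXCL2 (0.000107), CXCL3 (0.000322), CXCL6 (0.0335) and the CXCL2 upstream region (8.36e-07), and 8 of the 30 bins were called, against 47.3% of all bins higher in that fit. The CXCL6 bin passed the filter largely through the SW480 ERβ libraries, so its call is a description. With HT29 replicate 1 left out of mock and ERβ, CXCL1, CXCL2 and CXCL3 passed too, with adjusted p of 0.0198, 0.0369 and 0.0471, and 5 of the 30 bins were called, against 17.2% of all bins higher.

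Other genes of the neutrophil circuit were read at their promoters from lists of named genes. The receptor genes CXCR1, CXCR2 and ACKR1 had 0 of 3 called by limma in each of the 5 comparisons, with 1 at an unadjusted p under 0.05 between the mock cells, where 30.7% of all promoters were, and 0 in the other 4. Of the 11 other CXC ligand genes, 2 were higher and 2 lower in SW480 mock than in HT29 mock, where 11.1% of all promoters were higher and 2.09% lower. CXCL12 and CXCL16 were higher on the deposited scale, by 0.27 and 0.36 on the log2 scale with adjusted p of 0.0401 and 0.0493, and the interferon-induced CXCL9 and CXCL10 were lower, at -0.32 and -0.61 with adjusted p of 0.0324 and 0.0387. CXCL9 was at 1.55 and 0.673 times input in HT29 mock and SW480 mock, and CXCL10 at 2.82 and 1.61 times. CXCL12 and CXCL16 were near the input, at 1.29 and 0.991 times input in HT29 mock and 0.983 and 0.770 times in SW480 mock, and their inputs were 0.177 and 0.328 in HT29 mock against 0.483 and 0.905 in SW480 mock. With input subtracted both changed sign, to -0.06 and -0.05, and limma called 0 of the 19970 promoters between the mock cells, with 3383 at an unadjusted p under 0.05. Between the ERβ cells CXCL16 and CXCL14 were higher in SW480 (0.44 and 0.23, adjusted p 0.014 and 0.0244), and PF4V1, which lies between CXCL6 and CXCL1, was lower (-0.18, adjusted p 0.0377), against 19% of all promoters called in either direction. With input subtracted CXCL16 missed there (0.21, adjusted p 0.0931), CXCL14 passed (0.14, adjusted p 0.0444) and PF4V1 was at 0. None of these 7 values changed sign after rescaling, but CXCL9, CXCL10, CXCL14, PF4V1 and, between the ERβ cells, CXCL16 then missed (adjusted p 0.0658 to 0.85). PF4 and PPBP, the platelet chemokine genes between CXCL1 and CXCL5, had group means of 0.299 to 0.433 and no call.

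Of 14 listed genes that act upstream or downstream of these chemokines, 13 had signal. TNF was listed at 0 in every track, inputs too, and could not be tested. LCN2 and ZFP36 were lower in SW480 mock than in HT29 mock. LCN2, a neutrophil and epithelial siderophore-binding protein, had -1.54 (SE 0.22, adjusted p 0.0107), and ZFP36, which destabilizes cytokine mRNAs, had -0.56 (SE 0.12, adjusted p 0.034). Of the 13, 2 were thus lower, against 2.09% of all promoters. Both kept their call after rescaling but not with input subtracted (adjusted p 0.118 and 0.153). In the other 4 comparisons limma called 0 of the 13, against 0.00501% of all promoters in HT29, 0% in SW480, 19% between the ERβ cells and 0% for the interaction. At an unadjusted p under 0.05 were 0 in HT29, 5 in SW480, 3 between the ERβ cells and 3 for the interaction, against 3.57%, 12.7%, 35.6% and 8.56% of all promoters.

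The promoters whose signal over the 12 ChIP libraries was most like the mean of the 6 members, among 1408 with a mean signal of at least 1, were those of STAT5A (Pearson r 0.98), BTBD19 (0.97), USP49 (0.97), CCL20 (0.97) and FOXP4 (0.97). The 12 libraries share 4 groups and differ in their overall enrichment, so these values are a description.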

How the data were processed

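p65 ChIP-Seq of HT29 and SW480 cells was read from 16 tracks, 12 of ChIP and 4 of input libraries. The authors aligned single reads to hg38 (GRCh38) with STAR, kept unique alignments, and deposited coverage signal made with HOMER as tag density, scaled to 10 M tags and 100-bp fragments, without stretches under 0.05. The tracks hold no read counts, so the precision of a value rests on its 3 libraries, and no counting interval is given. p-values rest on the spread between libraries that the study calls biological replicates. limma drew that spread toward the value usual for features of like signal. Standard errors were thus nearly the same at strong bins, whatever the spread of their own libraries. For ERβ against mock in HT29 they were 0.498 at CXCL1 and 0.499 at the CXCL5 upstream region. The main fits do not model a shift in enrichment that a library shares over its bins.

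Signal was averaged in 200-bp bins and over promoters (1000 bp before to 100 bp after the canonical start site, GENCODE release 44). limma 3.58.1 in R 4.3.3 was run on log2(signal + 1) with Benjamini-Hochberg adjustment over 19970 promoters, 932 of them with no signal in any ChIP library, and over 19580 bins with a mean over the 12 ChIP libraries of at least 1 and at least 2 times input. Within-line and between-line fits used the 6 libraries compared, and the interaction all 12. Fits were tested on simulated data with separate noise for each feature and library. Those data held no shift in enrichment shared over a library, so they cannot show how the fits handle one. Sequences were read with pysam 0.24.0 and aligned with Biopython 1.88, tracks were handled in Python 3.11.15 (pandas 2.3.3, numpy 2.4.6), and figures were drawn with matplotlib 3.10.9.

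The members, gene lists and tests were chosen with earlier results of these data known. The text names the 6 members, the 3 neighboring genes, the 3 receptor genes, listed genes that passed in any comparison, TNF, which had no signal, and the 5 most similar promoters. Alternatives covered the pseudocount, scaling, input subtraction, filters, bin grid, promoter width, replicate block and leaving out each library. The deviations from the group mean of same-numbered mock and ERβ libraries correlated at 0.479, 0.179 and 0.194 in HT29 and 0.276, 0.118 and 0.179 in SW480 over 19580 bins, all above the limit of 0.1 at which numbers were taken to pair libraries within a line. In HT29 mock replicate 2 also correlated with ERβ replicate 3 (0.205) and mock replicate 3 with ERβ replicate 2 (0.135). The labels do not say what they shared.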

Additional observations from a re-analysis of the deposited data

Results flagged for a closer look

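At the region upstream of CXCL2 the ERβ effect on p65 signal differed between the lines in the main fit. The difference was 1.76 on the log2 scale (SE 0.54, limma interaction term over 12 libraries, adjusted p 0.0269). It missed after rescaling to the 5000 highest bins (0.92, adjusted p 0.174), with a pseudocount of 2 (1.38, adjusted p 0.0617) and on a grid shifted by 100 bp (0 of 27 cluster bins). It passed in 5 of 12 fits without 1 library and with the replicate block (adjusted p 8.36e-07). Of all tested bins, 7.82% were called higher in the main fit and 47.3% with the block. The median difference over all bins was 0.62, and 1 of the 30 cluster bins was called in the main fit. All 3 SW480 ERβ libraries (4.78 to 8.54) were above all 3 SW480 mock libraries (0.420 to 2.55), while the HT29 groups overlapped (4.03 to 11.98 with ERβ and 3.69 to 12.4 in mock). The region lies in an intron of MTHFD2L, and which gene it acts on was not tested. Groups of 3 libraries are too small for a test of single outlying samples.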

How the results depend on the processing

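Of 1057 values at the 6 promoters and 7 highest bins under 23 alternatives, 963 kept their direction and side of the threshold or changed sign without a call, 53 lost a call, 40 gained one and 1 turned. The one that turned was the CXCL2 upstream region between ERβ cells, -0.48 after rescaling to the 5000 highest bins. With that rescaling the cluster bins called were 2 for SW480 ERβ against mock (1 higher, 1 lower), 16 between ERβ cells (all lower in SW480) and 0 for the interaction, and 2 member promoters were called between mock cells (0.951% of all lower). Over all bins, SW480 ERβ against mock gave 587 higher and 162 lower in place of 6223 and 3, and the interaction 179 and 31 in place of 1531 and 0. The block gave 9254 and 5 for the interaction. Shares of all features called in the same fit follow each count of calls in parentheses. All 12 libraries in one fit gave 6 cluster bins for SW480 ERβ against mock (20.7%) and 1 promoter between mock cells (16.1%). Subtracting input gave 1 promoter in SW480 (20.9%), 2 promoters (25.3%) and 4 bins (28.5%) for the interaction. With promoters of a mean of at least 0.5, 4 were called in SW480 (7.22%) and 2 between mock cells (24.5%), and bins of a mean of at least 0.5 gave 8 calls of 39 between ERβ cells (35%). Of the 4 promoters in SW480, CXCL6 met that filter through the SW480 ERβ libraries, so its call is a description. A pseudocount of 2 gave 0 promoters between ERβ cells (18.5%) and 0 bins for the interaction (6.91%), and the shifted grid gave 0 of 27 bins for the interaction (7.49%). The shifted grid also gave 10 listed bins in SW480 mock, and the share of all bins listed on that grid was not computed. Leaving out HT29 replicate 1 of both groups, chosen after seeing the data, gave 1 promoter between mock cells (9.67%), 0 between ERβ cells (17.2%) and 5 interaction bins (17.2%). The causes were not tested.

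With the replicate block, cluster bins called were 0 in HT29, 12 in SW480, 7 between mock cells, 1 between ERβ cells and 8 for the interaction, and 0 promoters between ERβ cells (5.24% of all promoters). Over all 19580 bins the block called 46.3% higher in SW480, 22.4% lower between mock cells, 15.9% higher and 4.97% lower between ERβ cells and 47.3% higher for the interaction. Across lines the block joins libraries by number alone. It moved no other count of calls at the members by over 1.5 times.

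Without 1 library at a time, promoters called ranged from 0 to 0 in HT29 and for the interaction and from 0 to 1 in the other 3 comparisons. Cluster bins called ranged from 0 to 0 in HT29, 2 to 18 in SW480, 4 to 16 between mock cells, 1 to 5 between ERβ cells and 0 to 7 for the interaction. The shares of all bins called moved too, from 0% to 0.00511% in HT29, 12.8% to 63.9% in SW480, 24.3% to 38% between mock cells, 23.3% to 47% between ERβ cells and 2.4% to 30.4% for the interaction. In SW480 the 2 cluster bins without mock replicate 1 stood beside 12.8% of all bins and the 18 without ERβ replicate 1 beside 63.9%. Shares of promoters called ranged from 0.00501% to 1.01% in SW480, 3.56% to 9.67% between mock cells and 4.31% to 17.2% between ERβ cells. Listed bins ranged from 13 to 18 in HT29 mock, 11 to 17 in HT29 ERβ, 6 to 7 in SW480 mock and 11 to 15 in SW480 ERβ. Groups of 3 libraries, and tracks that do not hold the depth of each library, limit what a missed threshold can show.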
